A study of Homo sapiens with 10 samples.

Results

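The genes described here are the receptors, ligands and signalling partners of the GDNF family: the co-receptors GFRA1, GFRA2 and GFRA3, the receptor tyrosine kinase RET, the adhesion receptor NCAM1, and the ligands GDNF, NRTN, ARTN and PSPN. They are 9 of the 33551 rows of a count table over 10 libraries. The group was chosen by name around GFRA1, and GFRA1 itself was picked out on its measured differences between lines, so its line differences are given as a description with no test. The other 8 genes entered through their known relation to GFRA1.

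The cells were A549, a human cell line established from a lung adenocarcinoma, sequenced in 5 versions: WT, a line labelled KO for ABCA3 (a lipid transporter of the lung's surfactant-storing organelles), and one line each with L101P, E292V and E690K ABCA3. Each was sampled without treatment and again after a night with a VSVG-coated lentivirus encoding ABCA3:GFP (multiplicity of infection 20). Each line and treatment had 1 library and each genotype 1 line, all grown in DMEM with fetal bovine serum. The series title sorts the variants into type 1 and type 2, and for that reason L101P was also set against E292V and E690K averaged.

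Ligands of this family do not bind RET directly. Each binds a GPI-anchored GFRA protein on the cell surface (GDNF mainly GFRA1, neurturin from NRTN mainly GFRA2, artemin from ARTN mainly GFRA3), and the complex then brings RET molecules together, which start ERK and AKT signalling. GDNF with GFRA1 can also signal through NCAM1 without RET. The pathway is best known from the enteric nervous system, kidney and sympathetic and sensory neurons, and RET fusions drive a subset of lung adenocarcinomas.

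The libraries held 59430095 to 96811421 counts. In the KO pair the labels went against the transgene: ABCA3 stood at 601 CPM (counts scaled to a library total of 1000000) in the library labelled KO untreated and 25.8 CPM in the library labelled KO transduced, and EGFP at 37.9 and 0.0492 CPM. The untreated libraries of the other lines also held EGFP reads, from 1.01 CPM in L101P to 70.9 CPM in WT. All 6 epithelial markers exceeded 1 CPM in every library, while 6 of 7 alveolar type 2 markers were under 1 CPM in every library (summed level 1.28 to 2.24 CPM). Neural crest and Schwann markers summed to 0.292 to 1.42 CPM with 2 of 6 at 0 throughout, and 3 of 8 neuroendocrine and neuronal markers (SYP, UCHL1 and TUBB3) exceeded 1 CPM in every library, with INSM1 at 0. Of 8 fibroblast, endothelial and immune markers, 2 exceeded 1 CPM in every library, and the list summed to 51.4 to 142 CPM.

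GFRA1 (ENSG00000151892.14) lies on the minus strand of chromosome 10, positions 116056925 to 116273467, and RET (ENSG00000165731.18) on the plus strand of the same chromosome, positions 43077027 to 43130351 (GRCh38, GENCODE 29). Upstream windows of these genes are shown because co-receptor and kinase had unlike patterns across the lines. They are RefSeq windows on GRCh38.p14, written 5′ to 3′ on the gene's strand with CG dinucleotides in capitals. The RET window is chr10:43076819-43077026 (plus strand) and stops before the first exon of its coding transcripts. The GFRA1 windows end at 2 annotated starts, chr10:116272476-116272725 and chr10:116274706-116274955 (minus strand).
RET: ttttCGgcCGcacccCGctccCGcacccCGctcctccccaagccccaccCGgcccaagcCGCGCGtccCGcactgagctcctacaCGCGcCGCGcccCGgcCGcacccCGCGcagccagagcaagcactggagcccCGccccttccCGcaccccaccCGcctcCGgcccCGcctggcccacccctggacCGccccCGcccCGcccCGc
GFRA1 start near 116272475: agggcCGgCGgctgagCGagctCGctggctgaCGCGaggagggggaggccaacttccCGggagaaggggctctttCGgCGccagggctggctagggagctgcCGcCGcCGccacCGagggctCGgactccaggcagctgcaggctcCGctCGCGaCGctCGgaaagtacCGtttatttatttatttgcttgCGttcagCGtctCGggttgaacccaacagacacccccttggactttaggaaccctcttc
GFRA1 start near 116274705: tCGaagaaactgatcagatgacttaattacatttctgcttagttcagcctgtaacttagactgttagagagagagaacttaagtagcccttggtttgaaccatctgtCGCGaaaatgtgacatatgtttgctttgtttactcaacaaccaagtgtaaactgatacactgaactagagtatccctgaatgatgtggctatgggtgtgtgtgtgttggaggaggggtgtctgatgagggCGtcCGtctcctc
The RET window shown held 27 CG dinucleotides at 80.8% G and C. The first GFRA1 window held 23 at 64.4%, 83 of its bases lying in an exon of a noncoding transcript, and the second held 5 at 43.2%. The letters GGGCGG, searched on both strands, occurred 4 times in this RET window and in neither GFRA1 window shown. They occurred in 42.6% of the 35116 windows of 250 bases searched. RefSeq has other windows for both genes that are not printed: another RET window held 6 CG dinucleotides at 58% and the letters GGGCGG 1 time, and a further pair of GFRA1 windows held 12 and 4. The counts do not show which start of either gene was in use.

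GFRA1, the GDNF-binding co-receptor, was present in WT and E292V and nearly absent from the other 3 lines. WT held 640 counts untreated and 1542 transduced (7.66 and 19.0 CPM). E292V held 532 and 2243 counts (6.75 and 23.6 CPM). E690K held 14 and 36 counts (0.185 and 0.461 CPM), the KO-labelled pair 2 and 0, and the L101P pair 0 and 0. The 4 libraries of WT and E292V thus lay above all 6 libraries of the other lines, with no overlap, and this separation does not rest on which KO library was transduced.

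Pooled over both libraries of a line, GFRA1 was 16.0 CPM in E292V, 13.2 CPM in WT, 0.325 CPM in E690K and 0.0128 CPM in the KO-labelled line. WT exceeded E690K 40.7-fold (95% interval 27.4 to 63.2) and the KO-labelled line 1034-fold (185 to 40880). With no count in either L101P library, WT was at least 280-fold higher by the same interval, and 345-fold higher against a floor of 3 read pairs over that pair (0.0384 CPM). The ratio of WT to E292V was 0.829, and their order changed with treatment, so these neighbours did not differ beyond the spread within a line. The KO-labelled and L101P lines also could not be separated, at 1 read pair against 0. All ratios share the WT libraries, and the intervals cover counting error only. In bulk RNA, fewer GFRA1-positive cells and less GFRA1 RNA per cell cannot be told apart.

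**Figure D1:**
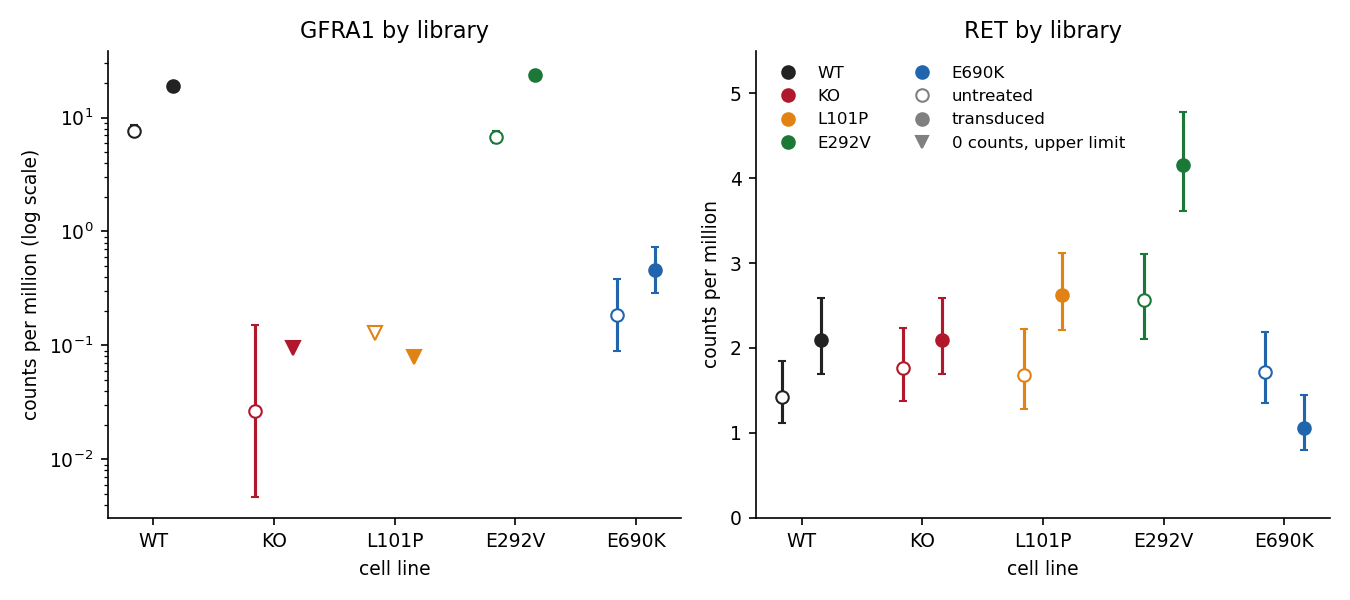
CPM of GFRA1 (left, log axis) and RET (right, linear axis) in each library, by line, with 95% Wilson intervals on read pairs. Open symbols are untreated and filled symbols transduced libraries, and triangles mark the upper limit for 0 counts. GFRA1 spans 0 to 23.6 CPM and RET 1.06 to 4.15 CPM.

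GFRA1 was also higher in the transduced than in the untreated library in each line with more than 2 counts. The ratio was 2.48 in WT (2.17 to 2.83), 3.51 in E292V (3.07 to 4.02) and 2.49 in E690K (0.992 to 7.05, from 50 counts). Across all lines the fitted vector effect was a log2 fold change of 1.495 (SE 0.21), the smallest unadjusted p of 17978 genes (1.94e-05), with an edgeR adjusted p of 0.109. It therefore missed the threshold of 0.05, as did every gene: 0% were called for the vector effect. The call depended on the genes and libraries entered. The adjusted p was 2.03e-08 without a filter on low counts and 0.000582 without the L101P pair. It was 0.514 without the WT pair, 0.586 without the E292V pair and 0.913 by the DESeq2 Wald test (log2 fold change 0.98). Beside it, EGFP had transduced to untreated ratios of 2.16 in WT, 3.23 in E292V, 1.1 in E690K and 35.5 in L101P, where GFRA1 stayed at 0 counts. The part of the vector in the GFRA1 level was not tested beyond this fit.

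The other co-receptors were scarce. GFRA2, the neurturin co-receptor (chromosome 8, 21690403 to 21812357, minus strand), held 46 and 20 counts in WT (untreated, then transduced), 12 and 6 in the KO-labelled pair, 26 and 14 in L101P, 16 and 20 in E292V, and 12 and 32 in E690K. The log2 fold change of the KO-labelled line against WT was -1.72 (SE 0.92), with an edgeR adjusted p of 0.438. GFRA3, the artemin co-receptor (chromosome 5, 138252379 to 138274671, minus strand), held 22 and 14 counts in WT, 28 and 0 in the KO-labelled pair, 2 and 10 in L101P, 14 and 13 in E292V, and 0 and 0 in E690K. E690K was the line with no GFRA3 read in either library. WT exceeded it at least 4.1-fold by the exact 95% interval, and 5.6-fold against a floor of 3 read pairs. The edgeR adjusted p was 0.136, and 0.0476 without a filter on low counts. Neither GFRA2 nor GFRA3 had the split between lines seen for GFRA1. GFRA2 held more counts in transduced E690K (32) than in transduced WT (20). The highest GFRA3 count, 28, was in the library labelled KO untreated. With so few counts (GFRA3 had 2 in untreated L101P), a weaker split could not be seen.

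RET, the shared kinase, was counted in every library and lay between 1.39 CPM (E690K) and 3.43 CPM (E292V) with the libraries of a line pooled. It held 119 and 170 counts in WT, 132 and 170 in the KO-labelled pair, 100 and 254 in L101P, 202 and 394 in E292V, and 130 and 83 in E690K. The transduced E292V library was highest at 4.15 CPM and the transduced E690K library lowest at 1.06 CPM. The E292V libraries held 2.56 and 4.15 CPM and the WT libraries 1.42 and 2.09 CPM. The pooled ratio of WT to E292V was 0.509 (0.415 to 0.624, counting error only). The log2 fold change was 0.92 (SE 0.32, unadjusted p = 0.0141), with an edgeR adjusted p of 0.286. In the KO-labelled and L101P lines, where GFRA1 was at or near 0, RET was 1.68 to 2.62 CPM, a range that overlaps WT.

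The transduced to untreated ratio of RET was 1.46 in WT, 1.56 in L101P and 1.62 in E292V. In E690K it was 0.626 (95% interval 0.414 to 0.936, counting error only). ABCA3 and EGFP contradict the labels of the KO pair, whose RET ratio was 1.19 as labelled and 0.841 with the labels exchanged. The vector effect on RET was 0.33 (log2, SE 0.21, edgeR adjusted p = 0.839), and 0.22 with the KO labels exchanged.

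NCAM1, the alternative GDNF signalling receptor (chromosome 11, 112961247 to 113278436, plus strand), was at the detection limit. It had 4 counts in transduced WT, 4 in the library labelled KO untreated, 10 in untreated L101P, and 0 in the other 7 libraries. Its exons overlap 2 antisense genes, and strand use in counting is not stated.

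**Figure D2:**
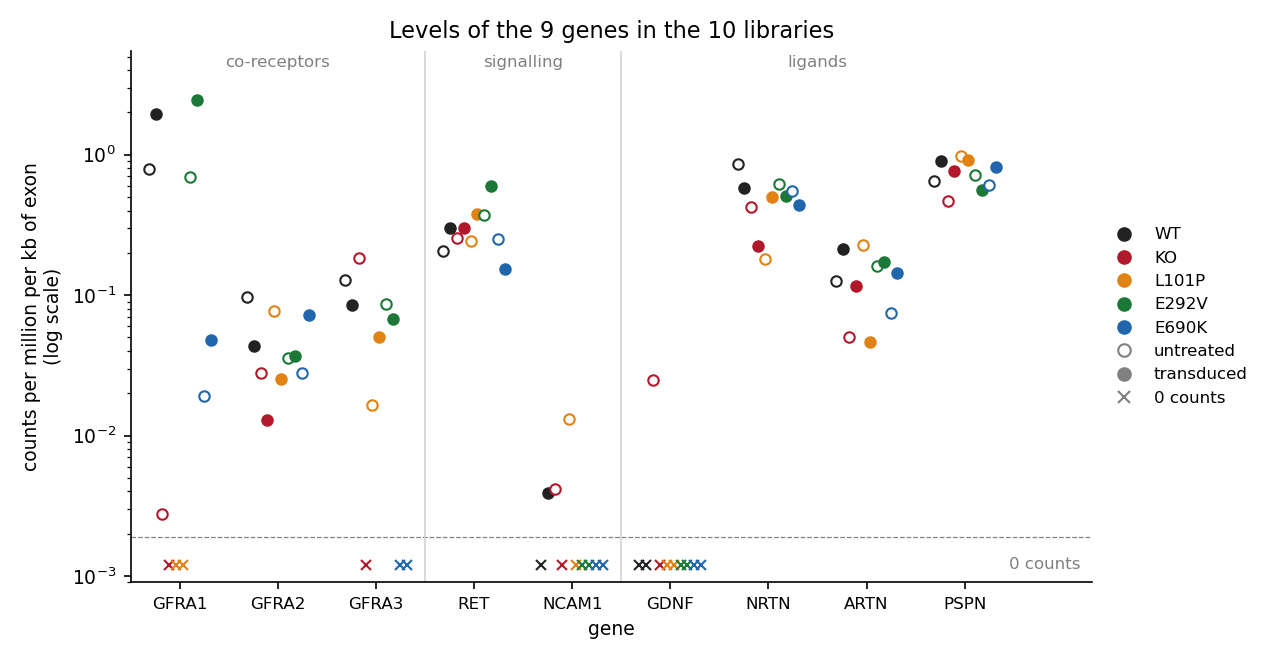
Level of each of the 9 genes in each of the 10 libraries, in CPM per kb of merged exon (log axis), with libraries at 0 counts drawn as crosses in the bottom strip. GFRA1 ranges from 0 to 2.44, whereas PSPN stays between 0.467 and 0.977 and RET between 0.154 and 0.601.

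Of the ligands, GDNF itself (chromosome 5, 37812677 to 37839686, minus strand) was all but undetected: 8 counts in the library labelled KO untreated and 0 in the other 9. A pair of libraries with 0 counts allows a level of up to 0.0345 to 0.039 CPM in the edited lines. The lines that carried GFRA1, WT and E292V, thus had no GDNF read. GDNF exons share 526 bases with the antisense gene GDNF-AS1.

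PSPN, which encodes persephin, the ligand of GFRA4, was the steadiest gene of the 9. It held 212 and 289 counts in WT, 137 and 243 in the KO-labelled pair, 227 and 350 in L101P, 222 and 208 in E292V, and 180 and 250 in E690K. Its highest library (3.82 CPM) was 2.09 times its lowest (1.83 CPM). GFRA4, its own co-receptor, had no count in any library, nor had GFRAL, the GDF15 receptor. PSPN was higher in L101P than in the mean of E292V and E690K by 0.51 (log2, SE 0.23, unadjusted p = 0.0415), with an edgeR adjusted p of 0.24. PSPN (chromosome 19, 6375148 to 6379058, minus strand) shares 104 bases of exon with ALKBH7 on the other strand, and strand use in counting is not stated.

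NRTN, the ligand of GFRA2 (chromosome 19, 5823802 to 5828324, plus strand), held 80 and 52 counts in WT, 35 and 20 in the KO-labelled pair, 12 and 54 in L101P, 54 and 53 in E292V, and 46 and 38 in E690K. The difference of the KO-labelled line from WT was -1.14 (log2, SE 0.60), with an edgeR adjusted p of 0.427. The transduced to untreated ratio was 0.668 in WT, 0.801 in E292V and 0.8 in E690K, against 2.76 in L101P (1.12 to 8.18). In the KO-labelled pair it was 0.513 as labelled and 1.95 with the labels exchanged.

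ARTN, the ligand of GFRA3 (chromosome 1, 43933320 to 43937241, plus strand), held 28 and 46 counts in WT, 10 and 25 in the KO-labelled pair, 36 and 12 in L101P, 34 and 43 in E292V, and 15 and 30 in E690K. In L101P, where NRTN had a ratio above 1, the transduced to untreated ratio of ARTN was 0.205 (0.0665 to 0.538). It was 1.69 in WT, 1.08 in E292V and 1.82 in E690K, and in the KO-labelled pair 2.22 as labelled and 0.451 with the labels exchanged. The fitted vector effects were -0.15 (SE 0.39) for NRTN and 0.21 (SE 0.54) for ARTN, both with an edgeR adjusted p of 0.975.

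**Figure D3:**
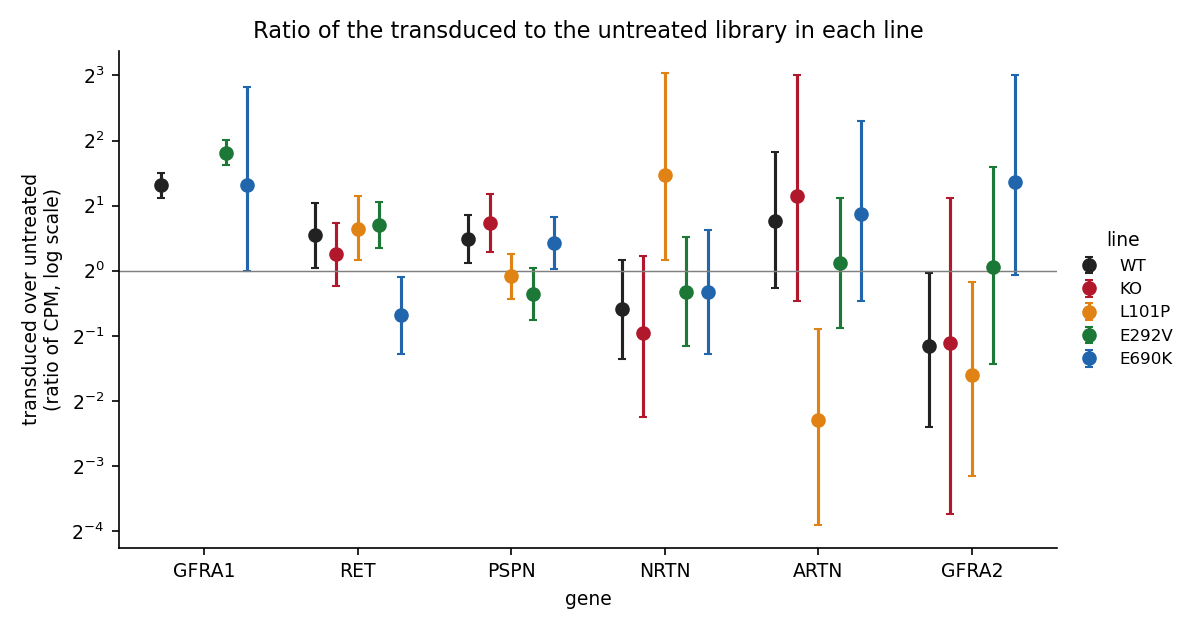
Ratio of the transduced to the untreated library (CPM, log axis) for GFRA1, RET, PSPN, NRTN, ARTN and GFRA2 in each line, with exact 95% intervals on read pairs. GFRA1 is above 1 in WT, E292V and E690K and is not drawn for the KO-labelled and L101P lines, which held at most 2 counts; in L101P, NRTN lies above 1 (2.76) and ARTN below it (0.205).

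Per kb of exon, the median level over the 10 libraries was highest for PSPN (0.742 CPM per kb), then NRTN (0.504), RET (0.279), ARTN (0.135), GFRA3 (0.059), GFRA2 (0.0362) and GFRA1 (0.0334), with NCAM1 and GDNF at 0. That order changed with the line: in transduced WT and E292V, GFRA1 was above every other gene of the group. Among 23900 genes with counts and a known length, PSPN stood at the 51.3rd percentile per kb, RET at the 44.5th and GDNF at the 5.02nd. By this measure the ligands NRTN, ARTN and PSPN and the kinase RET were low to middling genes of these cells.

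Of the 9 genes, 7 passed the filter on low counts, which left out GDNF and NCAM1. Among the 6 tested besides GFRA1, 0 were called in the KO-labelled line against WT (1.8% of all genes were), 0 in the L101P line (3.94%), 0 in the E690K line (5.38%), 0 in the E292V line (1.05%), and 0 in L101P against the mean of the other variants (5.79%). With shares this small over all genes, no call among 6 is close to the background. Unadjusted p-values under 0.05 were those of RET in E292V, GFRA3 in E690K and PSPN in L101P against the other variants. The DESeq2 Wald test gave an adjusted p for only 3 to 5 of the 6, and called 0 of those. A line contrast compares single lines, and its error is the departure from a shared vector effect.

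Genes that act with these receptors were taken as 4 lists. In the list of other receptor parts, 3 of 5 genes were tested, and SORL1 and GDF15 moved. Over all genes, 1.8% were called against WT in the KO-labelled line, 3.94% in L101P, 1.05% in E292V and 5.38% in E690K. SORL1, a sorting receptor that binds GFRA1 and GDNF inside cells, was 35.5 and 43.3 CPM in WT and 35.0 and 28.1 CPM in E292V (untreated, then transduced). It was 60.3 and 74.9 CPM in the KO-labelled pair, 66.8 and 72.7 in L101P, and 62.1 and 61.6 in E690K. The 3 lines with little or no GFRA1 thus lay above WT and E292V in every library. That division was not particular to SORL1. The epithelial marker KRT19 was 62.4 to 140 CPM in WT and E292V and 204 to 459 CPM in the other lines. The epithelial markers KRT7, KRT8 and KRT18, the kinase gene SRC and CD68 divided likewise. The share of all genes with this division was not counted. SORL1 rose against WT by 0.81 (SE 0.13) in the KO-labelled line, 0.87 (SE 0.13) in L101P and 0.70 (SE 0.13) in E690K on the log2 scale (edgeR adjusted p = 0.0077, 0.00373 and 0.00679). In E292V its value was -0.32 (adjusted p = 0.377).

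GDF15, the stress-induced ligand of GFRAL, was 125 and 83.2 CPM in WT. It fell by 1.09 (log2, SE 0.14, edgeR adjusted p = 0.00168) in L101P. In E690K it fell by 1.295 (SE 0.14, edgeR adjusted p = 0.00028). The E690K libraries held 40.9 and 38.9 CPM and the L101P libraries 54.2 and 39.9 CPM, all under both WT libraries. In the KO-labelled line the log2 value was -0.57 (adjusted p = 0.0555) and in E292V -0.49 (adjusted p = 0.136).

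Of 18 tested RET adaptors and regulators, none was called in the KO-labelled, L101P or E292V line against WT (lowest edgeR adjusted p 0.108, 0.0658 and 0.204). Over all genes 1.8%, 3.94% and 1.05% were called there, so 0 of 18 is close to the background. In E690K, 3 rose. These were GRB10, an adaptor of receptor kinases, by 0.52 (SE 0.09, adjusted p = 0.00366), the receptor phosphatase PTPRF by 0.41 (adjusted p = 0.0394) and PDLIM7, a RET-binding scaffold, by 0.36 (adjusted p = 0.0268). The list's median log2 fold change in E690K was 0.11, beside -0.02 over all genes, of which 5.38% were called. With the KO pair left out, 1 of the 18 was called there. L101P against the mean of E292V and E690K, where 5.79% of all genes were called, gave 2 higher and 3 lower (2 and 2 with the KO pair left out). Insulin receptor substrate IRS2 (0.74, adjusted p = 0.0103) and the docking protein DOK4 (0.59, adjusted p = 0.00216) were the higher ones, and PDLIM7 was among the lower (-0.38, adjusted p = 0.0103).

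Of 5 tested genes of the NCAM route, the adhesion receptor L1CAM rose by 1.10 in E690K (SE 0.12, edgeR adjusted p = 0.000315), from 15.7 and 21.9 CPM in WT to 36.3 and 41.2 CPM. It rose by 0.62 in L101P (adjusted p = 0.0145, and 0.0787 with the KO labels exchanged). ST8SIA4, which adds polysialic acid to NCAM1, fell by 0.72 in E690K (adjusted p = 0.0192). It was higher in L101P than in the mean of the other variants by 0.83 (adjusted p = 0.00343), a contrast that shares the low E690K values. ST8SIA4 was 15 and 16.8 CPM in L101P, 14.3 and 10 in E292V, and 7.27 and 6.6 in E690K. Against WT, L101P was not called (0.48, edgeR adjusted p = 0.107). NCAM1 itself was at 0 in both E690K libraries. None of the 5 was called in the KO-labelled or E292V line (lowest adjusted p 0.142 and 0.872). Over all genes 1.8% and 1.05% were called there, so 0 of 5 is close to the background. The shares were 3.94% in L101P and 5.38% in E690K.

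ERK-responsive genes are switched on by the kinase cascade downstream of many receptors, RET among them. Of 17 tested, 1 rose in the KO-labelled line, 4 in L101P, 0 in E292V and 5 in E690K, and none fell against WT. Over all genes 1.8%, 3.94%, 1.05% and 5.38% were called in those comparisons, so 1 or 0 of 17 is close to the background. The list medians were 0.18, 0.21, -0.13 and 0.20 on the log2 scale. The early response gene EGR1 was 1.56 and 1.70 CPM in WT and 1.90 and 1.35 in E292V, but 6.46 and 7.71 in the KO-labelled pair, 3.63 and 6.09 in L101P and 8.33 and 8.09 in E690K. EGR1 thus followed the same division of lines as SORL1 and KRT19, as did DUSP4, PHLDA1, CCND1 and IER3 of this list. CCND1 was 564 to 615 CPM in WT and E292V and 629 to 749 CPM in the other lines. The share of all genes that divided in this way was not counted. EGR1 rose against WT by 2.15 (SE 0.25), 1.62 (SE 0.25) and 2.39 (SE 0.26) in the KO-labelled, L101P and E690K lines (edgeR adjusted p = 0.00204, 0.00541 and 0.00028).

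FOSL1, an AP-1 subunit, rose by 1.24 in E690K (SE 0.09, edgeR adjusted p = 1.75e-05), from 50.5 CPM in transduced WT to 112 CPM in transduced E690K, and PHLDA1 rose there by 0.55 (adjusted p = 0.0013). In L101P the phosphatase DUSP4 rose by 0.54 (adjusted p = 0.0416) and the Raf pathway inhibitor SPRED1 by 0.42 (adjusted p = 0.0347). Both L101P calls were lost without the KO pair (adjusted p = 0.0696 and 0.0565) and without the E690K pair (0.0987 and 0.0508). With the KO pair left out, the list had 1 call in L101P and 4 in E690K. For L101P against the mean of E292V and E690K, 4 of the 17 were higher and 1 was lower. The higher ones included FOS (0.81, adjusted p = 0.0326), ETV4 (0.53, adjusted p = 0.0176) and DUSP4 (0.51, adjusted p = 0.0208). DUSP4 was 415 and 496 CPM in L101P and 445 and 446 CPM in E690K, against 276 and 200 CPM in E292V. ETV4 was 104 and 114 CPM in L101P, 104 and 89.4 in WT and 92.9 and 92.5 in E690K, against 77.2 and 51.3 in E292V. Against WT, ETV4 in L101P was not called (0.22, edgeR adjusted p = 0.414). Over all genes 5.79% were called in this comparison, and without the KO pair 2 of the list were higher and 1 lower. Epithelial markers moved beside these calls: 1 of 6 was higher in the KO-labelled line, 2 in L101P, 0 in E292V and 3 in E690K (1 in L101P and 1 in E690K without the KO pair), and 3 in L101P against the other variants. Of the fibroblast, endothelial and immune markers, CD68 was higher in L101P (0.61, edgeR adjusted p = 0.0366) and COL1A1 in E292V (1.42, adjusted p = 0.0214). Without the KO pair, or with the KO labels exchanged, these markers had 0 calls in L101P against WT and 1 in E292V. COL1A1 was lower in L101P than in the mean of E292V and E690K (-1.40, adjusted p = 0.00613). It was 22.6 and 13.8 CPM in L101P and 21.3 and 30.3 CPM in E690K, against 74.3 and 118 CPM in E292V. The part of these markers in the result was not tested. Of all 17978 genes tested, 0 were called for the vector effect, so none of the 4 lists could hold a call (lowest edgeR adjusted p in the lists 0.16).

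**Figure D4:**
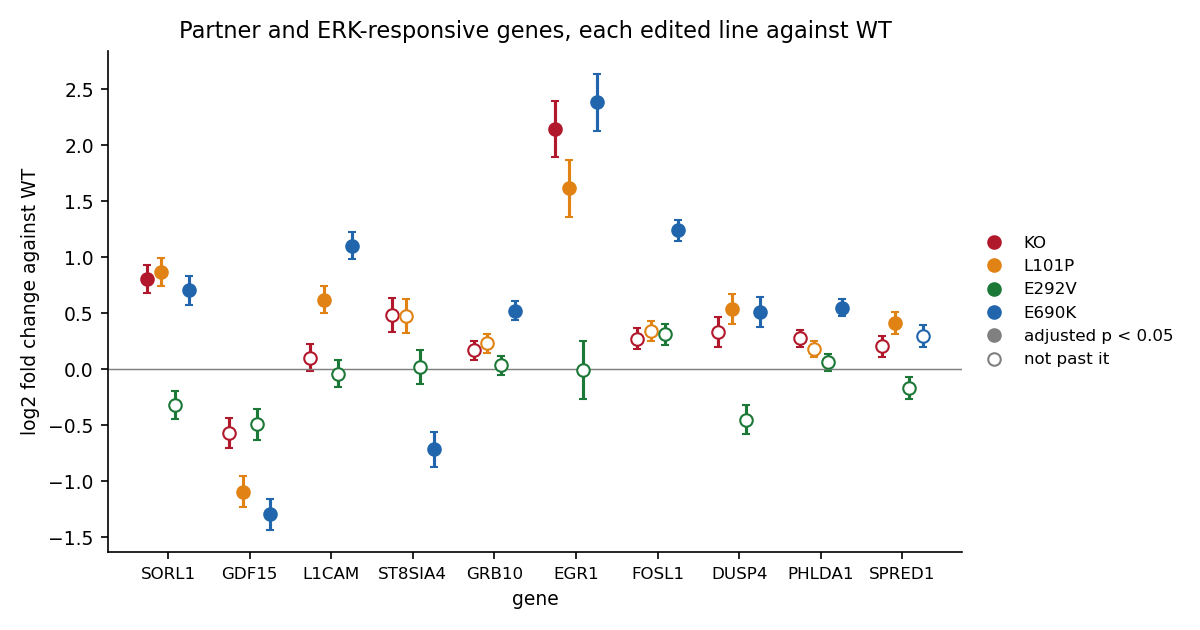
Log2 fold change against WT, with its standard error, of 10 partner and ERK-responsive genes in each edited line, filled where the edgeR adjusted p was under 0.05. SORL1 and EGR1 are filled and above 0 in the KO-labelled, L101P and E690K lines, and no gene is filled in E292V.

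The genes with the pattern most like that of GFRA1 were sought among 11968 genes by Pearson correlation of log2 CPM over the 10 libraries. They were DPYSL3 (r = 0.977), GRINA (0.976), NAT8L (0.976), PACSIN3 (0.974) and SS18L1 (0.97). The libraries share lines. By Spearman's rho, NAT8L and SS18L1 shared rank 3 (0.967 each), ties counted at the higher rank, and DPYSL3 stood at rank 73. DPYSL3, a cytoskeletal protein of growing axons, was the member of the 5 with a comparable range: 66.7 and 204 CPM in WT, 108 and 450 in E292V, 4.15 and 4.68 in E690K, 1.17 and 1.40 in the KO-labelled pair, and 2.15 and 0.95 in L101P. Like GFRA1 it was higher in the transduced library of WT and E292V. The others moved much less: GRINA was 159 to 169 CPM in WT and E292V and 124 to 142 CPM in the other 6 libraries.

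For RET the likest genes were DDX58, the RNA sensor RIG-I (r = 0.935), the endosomal GTPase gene RAB5A (0.907) and PROS1, which encodes protein S (0.9). By Spearman's rho, RAB5A was at rank 3, PROS1 at 7 and DDX58 at 9. DDX58 was highest in transduced E292V (11.2 CPM) and lowest in transduced E690K (4.65 CPM), the same extreme libraries as RET.

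**Figure D5:**
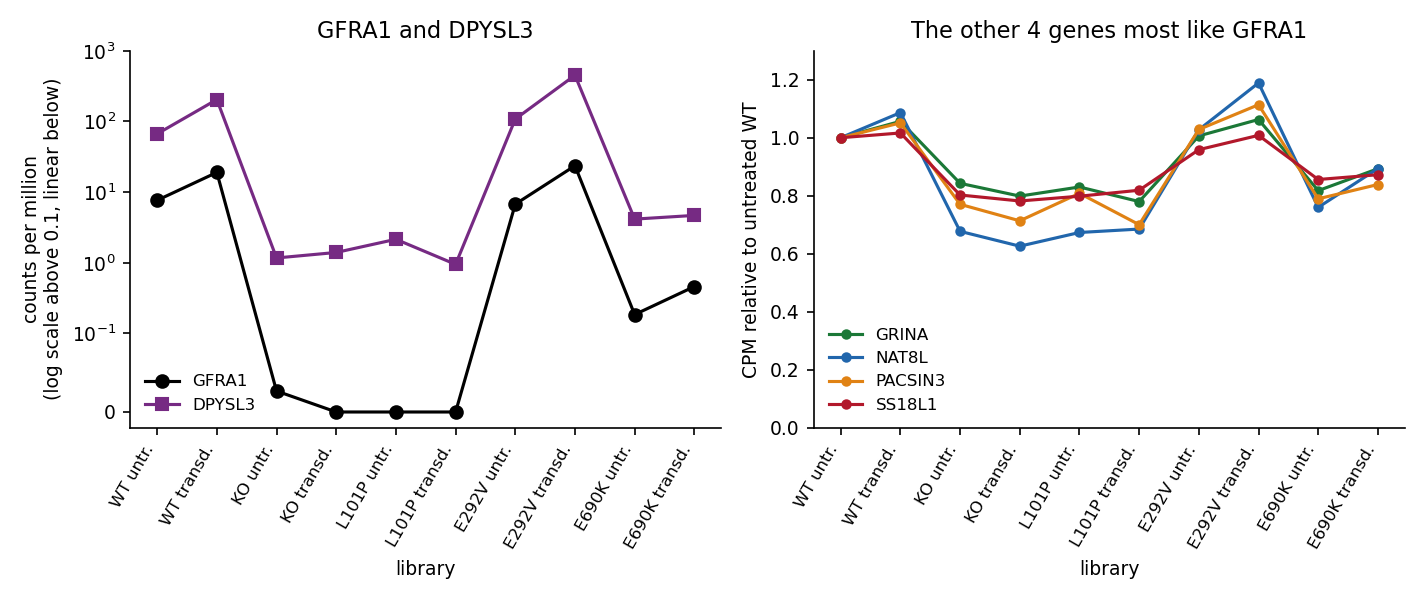
Left, GFRA1 and DPYSL3 in CPM in each library (log above 0.1, linear below). Right, GRINA, NAT8L, PACSIN3 and SS18L1 relative to untreated WT (linear axis from 0); the lines connect libraries only to guide the eye. GFRA1 and DPYSL3 are high in WT and E292V, while GRINA stays between 124 and 169 CPM in all libraries.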

How the data were processed

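Per the file headers and the values, the authors deposited raw counts per gene, 1 column for each of the 10 libraries. The submitters' processing notes name featureCounts, Subread, edgeR, limma and GRCh38, with no versions or roles. The 9 genes and the gene lists were chosen with earlier results of these data known. Positions and exon lengths came from GENCODE release 29 (98.7% of rows matched by name).

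Counts were fitted with edgeR 4.0.16 in R 4.3.3: filterByExpr (17978 of 33551 rows), TMM scaling, an additive model of line and vector (4 residual degrees of freedom) and the quasi-likelihood test with Benjamini-Hochberg adjustment over all rows tested (threshold 0.05). The 5 lines are the replicates of the vector effect, and libraries were paired by cell line. For GFRA1 the KO-labelled and L101P pairs held at most 2 counts, so they hardly inform the size of its vector effect. The labels name no separate cultures, so p-values measure only the spread between these libraries. The procedure was tested on simulated data. The standard error is the log2 fold change divided by the square root of F.

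Low counts were mostly even (81.4% of values from 1 to 10, 51.5% above 1000; 55 of 68 nonzero values of the 9 genes), as when both mates of a pair are counted. Intervals are therefore 95% Wilson or exact conditional binomial intervals on counts divided by 2, and cover counting error only. The text names all 9 genes; up to 3 genes per list and line contrast with the largest change among those past the threshold and with an average log2 CPM of at least 1; and the 5 genes most like GFRA1 and the 3 most like RET. Alternatives were DESeq2 1.42.0 (its size factors, and its Wald test), no filter, at least 10 counts in every library, exchanged KO labels, no line block, and leaving out each line's pair.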

Additional observations from a re-analysis of the deposited data

Results flagged for a closer look

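The transduced to untreated ratio of NRTN in L101P, 1.47 on the log2 scale, stood apart from the other 4 lines: the distance to the next line took up 0.736 of the range over lines, above the 95% critical value of 0.71 for 5 values. It rests on 12 and 54 counts. The range depends on the KO-labelled pair, whose labels the transgene contradicts: with those labels exchanged the same share was 0.265, under the critical value, and without that pair it was 0.859, above the larger critical value that 4 values require. For RET the share was 0.678 as labelled, 0.319 with the KO labels exchanged and 0.897 without the KO-labelled pair. That last share, with E690K apart at the low end, is also above the critical value for 4 values. The ratios of 5 genes were examined in this way, and chance flags about 1 set in 20.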

How the results depend on the processing

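The libraries were paired by cell line. Without that block the GFRA1 vector effect was 1.56 (log2, edgeR adjusted p = 1). It was 1.49 without a filter on low counts, where it passed the threshold and GFRA1 became the 1 gene of the group called for the vector effect. With 1 line's pair left out it ranged from 1.22 to 1.58, with 0 to 1 genes of the group called; the 1 was GFRA1 without the L101P pair. Exchanging the KO labels gave 1.55 (adjusted p = 0.0706). Requiring at least 10 counts in every library removed GFRA1 and gives no value. Without a filter, 1 gene besides GFRA1, GFRA3, was called in E690K against WT. Over all genes, the vector effect had 0 calls, against 237 without a filter, 113 by the DESeq2 Wald test and 133 without the L101P pair. The PSPN vector effect reversed to -0.026 with the KO labels exchanged. Of 260 alternative values for 33 fold changes, 242 kept direction and side of the threshold, 14 lost the call, 3 gained one and 1 reversed; the cause was not tested. The 14 concern DUSP4, SPRED1 and L1CAM in L101P, PDLIM7 and PTPRF in E690K, and FOS in L101P against the other variants. With at most 46 counts a library, GFRA2, GFRA3 and ARTN are limited by depth.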

Other observations

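Around GFRA1, 16 other rows of the table lie within 1 Mb. This window was chosen after the GFRA1 values were seen. Of these, 8 were tested and 0 called by edgeR in 32 tests of an edited line against WT (lowest adjusted p 0.136). Over all genes 1.05% to 5.38% were called in these comparisons, so 0 calls among 8 neighbours is close to the background. Some neighbours were sparse, such as ATRNL1 (2 to 28 counts a library) and C10orf82 (0 to 36). These tests therefore do not show whether the neighbours changed along with GFRA1. HSPA12A, a heat shock protein family member, held 2992 to 5058 counts, and SHTN1, a regulator of axon outgrowth, 6523 to 7949 counts per library.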
